A study of Homo sapiens with 6 samples.

Results

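This set of 9 genes encoding surface and receptor proteins of B cells was followed through an eIF4B iCLIP experiment, and it holds CD79A, CD79B, CD22, MS4A1, CD37, CD53, CD38, CD40 and CD48. They were chosen by name, as the listed positions whose gene name equals one of these symbols, with earlier results of these data known. They are 9 of 13668 protein-coding genes with at least 1 count in either cell line. iCLIP maps, at single-nucleotide resolution, where a protein was cross-linked to RNA by UV light, because reverse transcription stops at the cross-linked base. DoHH-2 is a cell line from a diffuse large B-cell lymphoma (DLBCL) and GM01953 is the B-cell line used as its control. The labels name 4 iCLIP replicates of DoHH-2 and 2 of GM01953, all from cells that received no other treatment in the labels. The deposited values pool these replicates into 1 table for each line, so there is no SD, no replicate check and no p-value for any difference between the lines. Intervals below are exact 95% intervals that cover counting error only, and each group is a single cell line, not a set of lymphomas or of normal B cells.

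eIF4B is a translation initiation factor that stimulates the RNA helicase eIF4A, which unwinds the 5′ UTR so that the small ribosomal subunit can reach the start codon. The B-cell receptor consists of a membrane immunoglobulin and the signalling pair CD79A and CD79B, and co-receptors such as CD22 lower its signal. MS4A1 encodes CD20, the target of rituximab, and CD37, CD38 and CD40 are also surface molecules against which antibodies have been made. CD37 and CD53 are tetraspanins, which organise other membrane proteins.

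The genes lie on 6 chromosomes of GRCh38. On chromosome 19 are CD79A (ENSG00000105369, chr19:41877279-41881372, plus strand), CD22 (ENSG00000012124, chr19:35319261-35347361, plus strand) and CD37 (ENSG00000104894, chr19:49335171-49343335, plus strand), and on chromosome 1 are CD53 (ENSG00000143119, chr1:110871188-110899922, plus strand) and CD48 (ENSG00000117091, chr1:160678746-160711831, minus strand). The others are CD79B (ENSG00000007312, chr17:63928738-63932336, minus strand), MS4A1 (ENSG00000156738, chr11:60455846-60470752, plus strand), CD38 (ENSG00000004468, chr4:15778275-15853232, plus strand) and CD40 (ENSG00000101017, chr20:46118271-46129863, plus strand). Their reference mRNAs have 4 exons in CD48 to 14 in CD22 and lengths of 1097 nt in CD48 to 5620 nt in CD38.

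DoHH-2 held 2033156 cDNA counts at 1179243 positions and GM01953 held 167197 at 78474, a 12.2-fold difference in depth. Levels are given as CPM, the counts of a gene scaled to a library of 1000000 counts. A single count equals 0.492 CPM in DoHH-2 and 5.98 in GM01953. A gene without a count is given a floor of 3 counts, which is 1.48 CPM in DoHH-2 and 17.9 in GM01953. All 8 B-cell marker genes had counts in GM01953 and 7 of 8 had counts in DoHH-2, where CD22 had none; 4 of the markers are members. The 4 T-cell, 4 myeloid and 4 erythroid markers had no count in either line, and the 4 plasma cell markers together had 152 CPM in DoHH-2 and 149.5 in GM01953. The mRNA level was not measured in these tables, so more eIF4B per mRNA and more mRNA cannot be told apart.

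The highest cross-link position on the mRNA marks where each gene was contacted most, and the windows that the results below refer to are shown here. Each is 21 nt of the transcribed strand of GRCh38, written 5′ to 3′, and the capital marks the cross-linked base. In DoHH-2 the highest position of all 9 genes lay in the coding sequence of CD48, in exon 2 at codon 37 (chr1:160685153-160685173, minus strand, 17 counts). The highest CD53 positions of the lines lay in the 5′ UTR, in exon 1, at nucleotide 18 of the mRNA in DoHH-2 (chr1:110873155-110873175, plus strand, 9 counts) and at nucleotide 25 in GM01953 (chr1:110873162-110873182, plus strand, 4 counts), so their windows overlap. CD79A had its highest DoHH-2 position in the 3′ UTR, in exon 5 and 106 nt before the mRNA end (chr19:41881256-41881276, plus strand, 9 counts), and its highest GM01953 position in exon 2 at codon 92 (chr19:41879176-41879196, plus strand, 5 counts). CD79B had its highest DoHH-2 position in exon 6, 85 nt before the mRNA end (chr17:63928815-63928835, minus strand, 9 counts). CD38 was highest in the 3′ UTR in exon 8, 3888 nt after the first base of the start codon (chr4:15851578-15851598, plus strand, 9 counts). MS4A1 was highest in GM01953 at codon 5 in exon 3 (chr11:60462378-60462398, plus strand, 8 counts). A CD48 position in the 3′ UTR in exon 4 was the highest of that mRNA in GM01953, level with 1 other, and held counts in both lines (chr1:160678857-160678877, minus strand, 3 counts in GM01953 and 9 in DoHH-2). The last 2 windows lie in introns: 1 in intron 5 of CD40 (chr20:46126168-46126188, plus strand, 50 counts) and 1 in intron 3 of CD22 (chr19:35333314-35333334, plus strand, 10 counts), both from GM01953.
CD48, DoHH-2: gaccguggucUccggcagcaa
CD48, both lines: cuuuguuguuUucuaguacac
CD53, DoHH-2: gccccggauaUcuguguuacc
CD53, GM01953: auaucuguguUaccagccuug
CD79A, DoHH-2: uaaugagcccUuaaucgcugc
CD79A, GM01953: guacgcugauCauccagaaug
CD79B, DoHH-2: gaacaucauuCcucucccgca
CD38, DoHH-2: aaauauagucCuuugauuuca
MS4A1, GM01953: acaacacccaGaaauucagua
CD40, GM01953: ggaugcugcuGaacaucugca
CD22, GM01953: gcccccuucaGacauuggggu

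Over all positions on the mRNAs of the 9 genes, the cross-linked base was U for 44.2% of 1187 counts in DoHH-2 (41.4 to 47.1%) and for 40.2% of 286 in GM01953 (34.5 to 46.1%), against 27.4% and 27.2% U in those mRNAs weighted by count. It was A for 8.85% and 10.8%, against 26.7% and 27.6% in the mRNAs. In all coding genes, U stood at 42.4% of counts in DoHH-2 and 39.9% in GM01953, which lies inside the members' intervals. In DoHH-2 the U share was also high at the base before, 43.0%, and at the base after, 46.0%, and was 26.3% at 10 nt before the cross-link.

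The first question was which of the genes were contacted in which line. Together they held 1488 counts in DoHH-2, 731.9 CPM (695 to 770), and 386 in GM01953, 2309 CPM (2084 to 2551). All 9 genes had counts in GM01953 but 6 in DoHH-2, although DoHH-2 was the deeper library. CD38 and CD48 held 79.7% of the DoHH-2 counts, whereas MS4A1 alone held 39.4% of those in GM01953. Without CD38 and CD48, DoHH-2 had 148.5 CPM on the genes that were left.

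**Figure D1:**
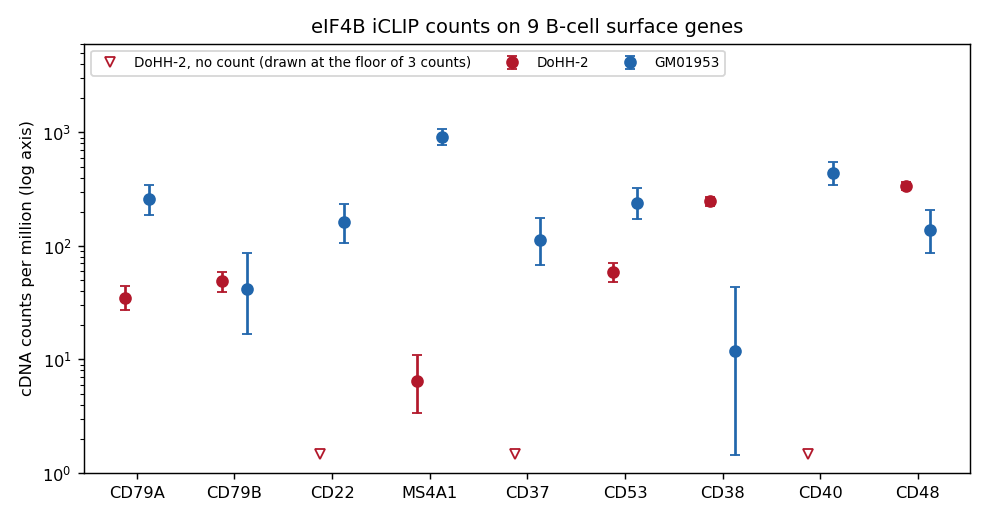
eIF4B iCLIP CPM (log axis) on each of the 9 genes in DoHH-2 (red) and GM01953 (blue), 1 pooled library for each line; bars are exact 95% Poisson intervals and open triangles mark genes without a count, drawn at the floor of 3 counts. CD38 and CD48 stand above GM01953 in DoHH-2, CD79B has overlapping intervals, and the other 6 genes are higher in GM01953.

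Of the signalling pair of the B-cell receptor, CD79A was higher in GM01953 and CD79B had overlapping intervals. CD79A had 71 counts in DoHH-2, 34.9 CPM (27.3 to 44.05), and 43 in GM01953, 257 CPM (186 to 346). Its intervals do not overlap, and it was 7.37-fold higher in GM01953 (4.92 to 10.9). CD79B had 99 counts in DoHH-2, 48.7 CPM, and 7 in GM01953, 41.9 CPM. The ratio of DoHH-2 to GM01953 for CD79B was 1.16 (0.544 to 2.97), an interval that includes a 2-fold difference upwards but not downwards. The 7 GM01953 counts of CD79B lay at 3 positions, of which 1 held 5.

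CD22, the sialic acid-binding inhibitory co-receptor, had no count in DoHH-2 and 27 in GM01953, 161.5 CPM (106 to 235). Set against the floor of 3 counts in the DoHH-2 library, it was at least 109-fold higher in GM01953. This bound takes the 27 counts as exact, and with their counting error the lower limit of the ratio was 83.1. Without its highest position, which held 10 counts in an intron, CD22 had 17 counts and a lower limit of 50.2. MS4A1 had 13 counts in DoHH-2, 6.39 CPM (3.40 to 10.9), and 152 in GM01953, 909 CPM (770 to 1066). That made MS4A1 142-fold higher in GM01953 (80.7 to 273), where it ranked 62 among 10148 coding genes with counts, against rank 9627 of 13153 in DoHH-2.

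CD40, the receptor through which T cells stimulate B cells, had no count in DoHH-2 and 73 in GM01953, 437 CPM (342 to 549), at least 296-fold higher in GM01953 by the same floor, with a lower limit of 235 by counting error. Of these 73 counts, 50 lay at 1 intron position, and without it 23 counts were left, 138 CPM (87.2 to 206), at least 93.2-fold higher than the DoHH-2 floor, with a lower limit of 69.9. The tetraspanin CD37 had no count in DoHH-2 and 19 in GM01953, 114 CPM (68.4 to 177), at least 77.0-fold higher in GM01953, with a lower limit of 56.7. Its total of 19 counts is below the minimum of 20 set for counting a ratio. CD53, the second tetraspanin, had 119 counts in DoHH-2, 58.5 CPM (48.5 to 70.0), and 40 in GM01953, 239 CPM (171 to 326). It was 4.09-fold higher in GM01953 (2.78 to 5.89), with intervals that do not overlap.

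CD38 and CD48 went the other way. CD38, an ectoenzyme that converts NAD, had 501 counts at 411 positions in DoHH-2, 246 CPM (225 to 269), and 2 counts at 1 position in GM01953, 12.0 CPM (1.45 to 43.2). The ratio was 20.6 in favour of DoHH-2, with a wide interval of 5.67 to 171 that comes from the 2 counts. These 2 counts lie below the GM01953 floor of 17.9 CPM, which was applied only to genes without a count. With counts on the exons of its reference mRNA alone, the log2 ratio of CD38 was 3.47 instead of 4.37. CD48, the GPI-anchored SLAM family ligand of CD244, had 685 counts in DoHH-2, 337 CPM (312 to 363), and 23 in GM01953, 138 CPM (87.2 to 206), a ratio of 2.45 (1.62 to 3.89). The lower end of that interval is below 2-fold, and when positions were counted in place of cDNAs the log2 ratio of CD48 was 0.47 instead of 1.29.

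Among coding genes with at least 20 counts in both lines together, 24.3% of 9416 were at least 2-fold higher in DoHH-2 and 14.2% at least 2-fold higher in GM01953. Of the 8 members with that many counts, 2 were higher in DoHH-2, 5 were higher in GM01953 and 1 was neither. The median log2 ratio was -2.46 over these 8 members and 0.20 over all coding genes counted. A complete lack of counts was rarer: of 3714 coding genes with at least 10 counts in GM01953, 1.7% had no position in DoHH-2, and CD22, CD37 and CD40 were 3 of these 63 genes. The nearest DoHH-2 position to CD22 was 34.8 kb away, to CD37 49.3 kb and to CD40 18.4 kb, on either strand.

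Levels were compared between genes only per kb of mRNA, with counts on the exons of the MANE Select transcript, the reference transcript of each gene. In DoHH-2 CD48 was highest at 282.5 CPM per kb (261 to 305), and it stood apart from the next genes. CD79B followed at 38.3, CD53 at 36.0, CD79A at 30.9 and CD38 at 23.5, and each of these overlapped its neighbour within counting error. MS4A1 was lowest of those with counts at 1.66 (0.858 to 2.90). In GM01953 MS4A1 came first at 240.5 (203 to 283), together with CD79A at 234 (169 to 315). CD53 at 147, CD48 at 114.5, CD37 at 71.3, CD79B at 33.6, CD40 at 32.0, CD22 at 16.4 and CD38 at 2.13 came next in that order, and no neighbours in it differed beyond their intervals.

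The next question was whether a gene held more than 20 counts at binding sites, and such a gene is called bound here. The study also asked for enrichment over total RNA, which was not applied here. A binding site here is a position with a false discovery rate (FDR) below 0.05, which was given by permuting the counts of a gene along it. In DoHH-2, 5 members were bound, where 33.3% of the coding genes with counts were bound. CD48 had 564 counts at 220 sites, CD38 146 at 81, CD53 58 at 26, CD79B 33 at 11 and CD79A 23 at 5, so CD79A passed narrowly. In GM01953, 3 members were bound, where 8.34% of coding genes were: MS4A1 with 90 counts at 36 sites, CD40 with 63 at 3 and CD53 with 22 at 10. CD53 was the 1 member bound in both lines, and it passed narrowly in GM01953: at an FDR below 0.01, MS4A1 and CD40 were the 2 members bound there. A limit on counts favours the deeper library. With a random draw of DoHH-2 counts as large as the GM01953 library, and without an FDR limit, CD38 with 33 counts and CD48 with 70 were the 2 members above 20 in DoHH-2, against 6 in GM01953.

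The share of counts at sites differed between genes with similar depth. CD48 had 82.3% of its DoHH-2 counts at sites and CD38 29.1%, and 60.8% and 86.4% of their positions held a single count. The CD48 signal was thus stacked at fewer places, and CD38 was covered thinly over a long gene.

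Positions were placed on 5 regions of the MANE Select mRNA, where the start and stop codon regions reach 50 nt to each side, and on introns. Over the 9 genes in DoHH-2, the start codon region held 16.1% of counts (14.2 to 18.0%), against 7.69% in all coding genes, and the stop codon region held 3.16% (2.33 to 4.18%), against 13.8%. In both lines the coding genes include histone mRNAs, and the paper reports eIF4B binding near the stop codon of many of these in DoHH-2. The stop codon share of coding genes without histone mRNAs was not computed. The 5′ UTR held 4.23%, the coding sequence 30.7%, the 3′ UTR 25.7% and introns 19.8%, against 5.24%, 31.7%, 20.4% and 17.1% in coding genes. The 3′ UTR share depends on the transcript: on the longest coding transcript of each gene it was 13.5% for the members and 18.5% for coding genes, below instead of above them. Much of the start codon share came from CD48. Without it, the other genes had 9.96% at the start codon (7.98 to 12.2%), which was still above the 7.69% of all coding genes. Their stop codon share was 3.61% (2.43 to 5.15%). In GM01953 the shares were 6.22% in the 5′ UTR, 11.1% at the start codon, 26.7% in the coding sequence, 7.51% at the stop codon, 22.5% in the 3′ UTR and 25.1% in introns. The coding genes of GM01953 had 8.99%, 9.37%, 31.7%, 12.1%, 15.1% and 17.9% in the same order.

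CD48 showed the densest signal at its start codon in DoHH-2. There were 159 counts within 50 nt of that codon, 1544 per kb, against 444 per kb in the rest of the coding sequence and 641 per kb in the 3′ UTR. At the stop codon the density was 175 per kb. Positions with 11 counts lay at nucleotides 50, 73 and 93 of the mRNA, the first of them before the start codon, and 16 counts lay at codon 46, beside the 17 at codon 37 whose window is printed above. Away from the start, 15 counts lay at nucleotide 1027 in the 3′ UTR. In GM01953, with 23 counts, a single count fell at the CD48 start codon, 4.35% (0.110 to 21.9%), against 23.2% (20.1 to 26.6%) in DoHH-2. Whether these shares differ was not tested.

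CD53 had its densest region in the 5′ UTR in both lines. It held 27 of 119 counts in DoHH-2, 22.7% (15.5 to 31.3%), and 16 of 40 in GM01953, 40.0% (24.9 to 56.7%). Scaled to length, the 5′ UTR took 64.2% of the summed density of the 5 regions in DoHH-2 and 75.8% in GM01953. The overlapping windows of CD53 shown above come from this stretch, and the position at nucleotide 25 had 3 counts in DoHH-2 and 4 in GM01953.

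CD79A was densest at the start codon in both lines, with 11 counts in DoHH-2, 42.9% of the summed density, and 8 in GM01953, 54.7%. Its 5′ UTR of 26 nt lies wholly inside that region. The coding sequence between the codon regions held 38.0% of the CD79A counts in DoHH-2 (26.8 to 50.3%) and 62.8% in GM01953 (46.7 to 77.0%), with overlapping intervals. CD79B had 24 of 99 DoHH-2 counts at the start codon and 38 in the coding sequence, where 7 and 4 counts stood at codons 102 and 100. MS4A1 in GM01953 was densest at the stop codon, 204 counts per kb, followed by the start codon, 184.5 per kb, and its 5′ UTR of 378 nt had 24.4 per kb. CD38 had 19 counts in its 5′ UTR of 87 nt outside the codon region, 513.5 per kb, and 38 at the start codon, 369 per kb, against 25.3 per kb in the 3′ UTR.

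**Figure D2:**
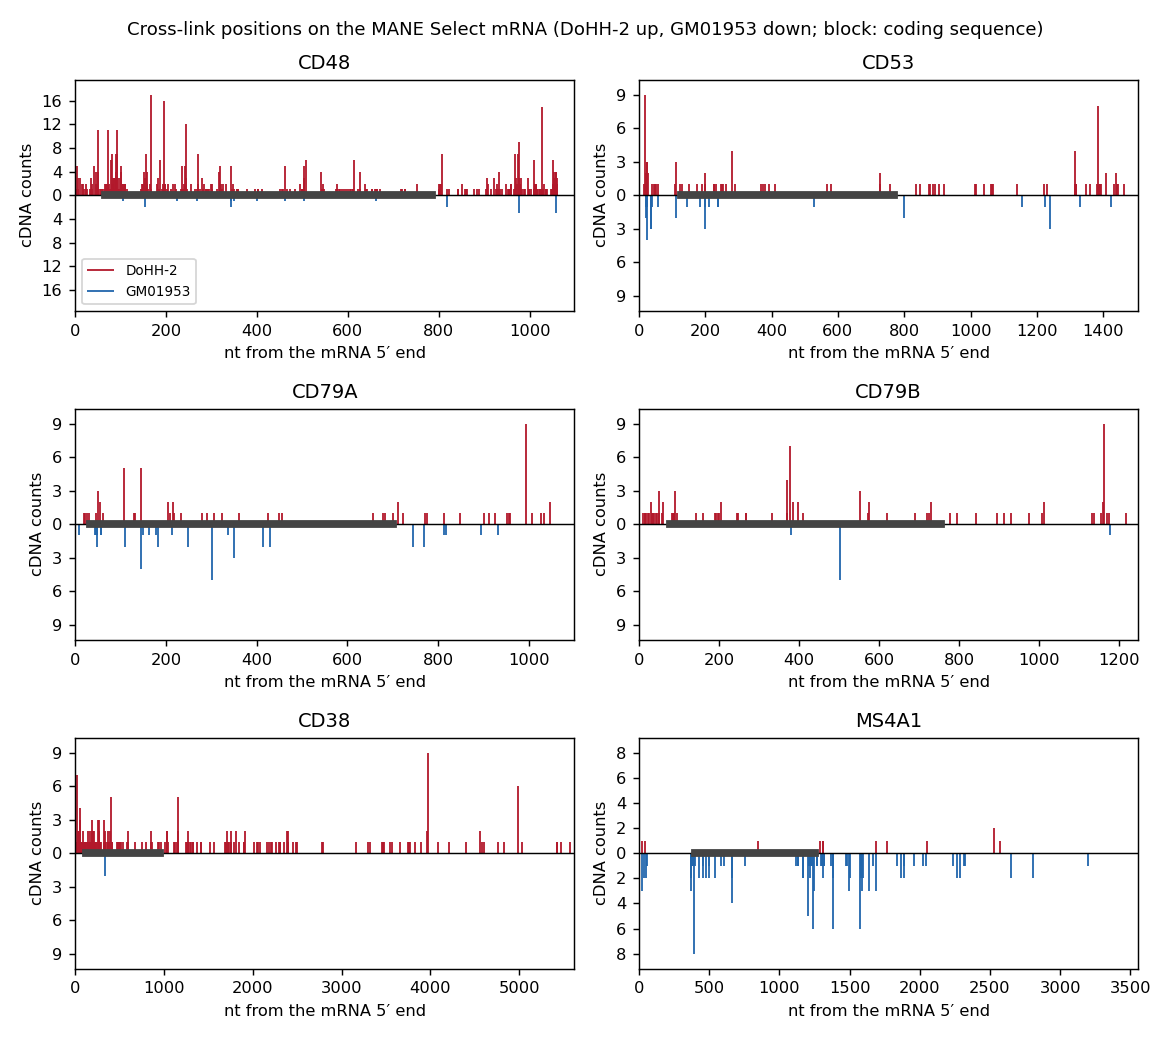
cDNA counts at each cross-link position along the MANE Select mRNA of 6 genes, with DoHH-2 drawn upwards in red and GM01953 downwards in blue; the horizontal axis is the distance in nt from the mRNA 5′ end, the vertical axis differs between genes, and the block marks the coding sequence. CD48 has its highest position, with 17 counts, near its start and another of 15 counts at nucleotide 1027 in its 3′ UTR. CD53 has its highest in the 5′ UTR in both lines. The GM01953 counts of MS4A1 gather around both codon regions and the first part of the 3′ UTR.

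The 3′ ends of the mRNAs showed a difference within the group. In DoHH-2, the last 150 nt of the mRNA held 132 of the 180 CD48 counts past the stop codon, 73.3% (66.2 to 79.6%), on 49.0% of that length. They held 17 of 27 in CD79A and 17 of 27 in CD79B, 63.0% each (42.4 to 80.6%), on 38.3% and 30.9% of the length. In CD53 they held 22 of 47, 46.8% (32.1 to 61.9%), on 20.6% of the length. These 4 genes have short 3′ UTRs of 306 to 727 nt. The shares refer to the MANE Select mRNA. The longest coding transcripts of CD79B and CD53 gave the same counts, but those of CD48 and CD79A end elsewhere and held 3 and 4 counts past their stop codons. The long 3′ UTR of CD38, 4630 nt, had 1 of 123 counts there, 0.813% (0.0206 to 4.45%), on 3.24% of the length, and 64.2% of its counts lay in the part of the 3′ UTR nearer the stop codon when it was cut in equal parts.

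Summed over members with a 3′ UTR of at least 300 nt, the last 150 nt held 45.8% of 413 DoHH-2 counts, where the length weighted by count would give 29.3%. In 8455 coding genes of DoHH-2 the same share was 9.81%, on 11.2% of the length. Without CD48 the members had 24.5% of 233 counts (19.1 to 30.5%), of which CD38 held 123. The 29.3% includes CD48, so it is not the length share of these genes, and theirs was not computed. By gene the length share was 38.3% in CD79A, 30.9% in CD79B, 20.6% in CD53, 6.57% in MS4A1 and 3.24% in CD38. In GM01953 the members had 8 of 97, 8.25% (3.63 to 15.6%), on 14.8% of the length, and 6 of these 8 were in CD48. CD79A had 0 of 8 there, CD53 1 of 9 and CD79B 1 of 1. Without MS4A1, the GM01953 share was 26.7% of 30 counts (12.3 to 45.9%). The 14.8% includes MS4A1, and the length share without it was not computed. MS4A1 had none of its 67 GM01953 counts in the last 150 nt of its 2284 nt 3′ UTR, with an interval of 0 to 5.36%, and 92.5% (83.4 to 97.5%) lay in the part nearer the stop codon. All 9 mRNAs hold a poly(A) signal, AATAAA or ATTAAA, in their last 50 nt on the transcribed strand, as do 79.6% of 19061 MANE Select mRNAs.

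Intron counts came mainly from CD38 in DoHH-2 and from CD40 and CD22 in GM01953. CD38 had 230 of 501 DoHH-2 counts in introns, 45.9% (41.5 to 50.4%), spread over 210 positions, of which 194 held a single count. Introns 1, 2 and 3 held 63, 69 and 83 of them, and 37 lay on an exon of another annotated CD38 transcript. Per kb, the CD38 introns had 3.32 counts and its mRNA 47.9. CD48, with more counts in all, had 52 in introns, 7.59% (5.72 to 9.84%). Few intron positions of the members were sites in DoHH-2, and at sites the intron share over the 9 genes was 1.58% instead of 19.8%.

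CD40 in GM01953 was of another kind. Of its counts, 63 of 73 were in introns, 86.3% (76.2 to 93.2%), at 4 positions, and 50 stood at the single intron 5 position shown above, 462 nt from the nearest exon of the MANE Select transcript. That base lies on an exon of a CD40 transcript annotated as a retained intron. This position held 68.5% of the gene's counts, and among 359 coding genes with at least 50 counts in GM01953, CD40 was the 1 gene in which a position held so large a share, with a median of 11.3%. CD22 had 18 of 27 counts in introns, 10 at the intron 3 position shown above, which is on no exon of its 34 annotated transcripts. On the mRNA, CD40 and CD22 had 9 counts each, so the level of both in GM01953 came mostly from introns. Whether these intron counts come from CD40 and CD22 pre-mRNA was not tested.

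Positions were then compared between the lines. Of the 144 GM01953 positions on mRNAs of members with counts in both lines, 19 were also listed at the same base in DoHH-2, which is 13.2% of the GM01953 positions and 2.81% of the 677 in DoHH-2. In all coding genes with counts in both lines these shares were 39.4% and 2.73%. The members differed widely. In CD48, 9 of 14 GM01953 positions were at the same base in DoHH-2 and all 14 were within 3 nt of a DoHH-2 position, where DoHH-2 had 279 positions on an mRNA of 1097 nt. CD53 shared 7 of 23, CD79A 1 of 26, MS4A1 1 of 77 and CD79B none of 3. MS4A1 had 11 DoHH-2 positions on its mRNA in all. The shared CD53 positions lay in the 5′ UTR, the start codon region and the coding sequence.

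Another 38 genes of the B-cell surface, in families related to the members, were counted in the same way. Of the 25 with at least 20 counts, 1 was at least 2-fold higher in DoHH-2, 13 were higher in GM01953 and 11 were neither, with a median log2 ratio of -1.35. In DoHH-2, 13 of the 38 had no count, and in GM01953 2. Of the 13668 coding genes with counts in either line, 13153 had counts in DoHH-2 and 10148 in GM01953. Only 3 of the 13 reached 20 counts in GM01953, so most of them were low there too. The highest ratios of DoHH-2 to GM01953 were 4.27 for the chemokine receptor CXCR4 (2.86 to 6.69; 1247 counts against 24), 1.56 for the interleukin receptor subunit IL4R (0.248 to 64.9; 19 against 1) and 1.33 for SLAMF7, a SLAM family receptor (0.873 to 2.12; 372 against 23). The lowest were the IgE receptor FCER2 with no count against 42, the chemokine receptor CCR7 with none against 28 and the inhibitory receptor LILRB1 with none against 20, at least 170-, 114- and 81.1-fold higher in GM01953 by the floor of 3 counts, with the GM01953 counts taken as exact. By family, the median log2 ratio was -1.85 for 7 receptors and co-receptors, CD81 among them. It was -2.96 for 4 genes of the TNF receptor family of CD40, -2.12 for 2 co-stimulation genes and -1.89 for 4 chemokine and cytokine receptors. Medians of so few genes hide a wide spread. The 4 chemokine and cytokine receptors ran from -6.83 in CCR7, a bound, to 2.10 in CXCR4. In the TNF receptor family, 2 genes were higher in GM01953 and 2 were neither. A list of the SLAM family of CD48 and of ligands, with CD58 among its 5 genes, had a median of -1.38. Of 6 other genes listed as tetraspanins, the 3 with at least 20 counts had a median of -0.33. That is the value of CD151, a gene with 29 counts in DoHH-2 and none in GM01953 that was set against the GM01953 floor. The 3 below that minimum had no count in DoHH-2 and 8, 6 and 9 in GM01953, so the median leaves them out. CD81 is also a tetraspanin but was listed with the receptors. The genes listed as SLAM family and ligands thus had a median below 0, whereas CD48 itself was at 1.29.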

How the data were processed

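eIF4B was immunoprecipitated from UV cross-linked DoHH-2 and GM01953 cells. The authors removed PCR duplicates with BBMap, demultiplexed with Je, mapped to GRCh38 with HiSat2, pooled replicates and obtained cDNA counts per cross-link position with iCount; the deposited counts are not normalised. The FDR, a q-value per position, was also deposited by the authors. Versions and annotation release are not given in the sources used here.

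Rows were taken by gene name and each position was counted once per line. Deposited positions count from 0, as the edges of listed genes showed, and are given from 1. Of gene IDs, 98.8% in DoHH-2 and 99.2% in GM01953 were in GENCODE release 44, whose MANE Select transcripts gave the regions. Codon regions reach 50 nt to each side. Ratios are of CPM, called at 2-fold for coding genes with at least 20 counts in both lines together, with exact conditional binomial intervals. Shares have Clopper-Pearson and counts Poisson intervals, all at 95% (scipy 1.17.1, numpy 2.4.6, pandas 2.3.3). With 1 pooled library per line no test was run. Depth was 2033156 and 167197 counts, so 3 counts, the floor, are 1.48 and 17.9 CPM. The steps were tested on simulated data. Members and lists were chosen with earlier results of these data known. Named were all members with their highest mRNA position in each line, and of the other surface genes the 3 highest and 3 lowest in ratio. Windows come from GRCh38; the protein sequences were not used here. Alternatives were other denominators, minimums, transcripts, codon regions, FDR limits, positions for counts, and thinning of DoHH-2.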

Additional observations from a re-analysis of the deposited data

How the results depend on the processing

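No paired analysis was possible because the deposited tables pool the replicates, and no replicate could be left out for the same reason. Of 56 ratios of single members under the alternatives, 55 kept their side of 2-fold, and CD48 fell below 2-fold when positions replaced counts (log2 0.47). Ratios under the minimum count are not among the 56. Those of CD22 and CD40 were missing by positions, with exons only and with at least 100 counts. That of CD22 was also missing with sites only, and that of CD79B after thinning. None of the 56 that was past 2-fold changed direction, but the ratio of CD79B, which was not past it, changed sign with sites only (log2 -0.53 instead of 0.22). By positions, members higher in DoHH-2 numbered 1 and those higher in GM01953 3, with 6 of the 9 genes passing the minimum. With sites only they numbered 2 and 4, with 7 genes passing. Those higher in GM01953 also numbered 3 with exons of the MANE Select transcript only and with at least 100 counts, because fewer genes passed. The CPM of the 9 genes in DoHH-2 were 859.5 over counts on coding genes, 873.5 over counts outside histone genes, 928 at sites, 811 by positions and 584 on exons; in GM01953 they were 2941 over coding genes, 2580 outside histone genes and 1711 on exons. The next 2 settings were chosen after seeing the data. Without CD40, which had counts in GM01953 only, the sum was 1872 there against 731.9 for DoHH-2, so DoHH-2 stayed lower. Without CD38 and CD48 it was 148.5 for DoHH-2 against 2159 for GM01953. These were the 2 members at least 2-fold higher in DoHH-2. Leaving them out could only lower DoHH-2 relative to GM01953, so that setting does not test the difference. The coding sequence share in DoHH-2 was 35.6% with codon regions of 25 nt, 38.0% at sites and 27.1% by positions, and 32.4% by positions in GM01953. The 3′ UTR share was 13.5% in DoHH-2 with the longest coding transcript, which differs from the MANE Select one in 4 members, and 28.5% in GM01953 without the highest position of each gene. The intron share in DoHH-2 was 1.58% at sites and 28.6% by positions; in GM01953 it was 31.7% at sites, 12.2% by positions and 12.5% without the highest positions. Bound members in DoHH-2 numbered 3 above 50 counts and 2 after thinning, and in GM01953 6 above 20 counts at any FDR and 2, without CD53, at an FDR below 0.01; the cause of the other shifts was not tested. The 12.2-fold lower depth of GM01953 limits what can be said of CD38 and CD79B there, with 2 and 7 counts.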

Other observations

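The antisense strand of the members was nearly empty. In DoHH-2, 4 positions with 4 counts lay opposite CD53, and no other member had a position on the opposite strand in either line. In GM01953, 1 CD22 position was also listed under a neighbouring annotation, U62631.5, and no other member shared its positions with another gene.

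Other B-cell genes that are not members also had counts in both lines. The transcription factor PAX5 had 554 counts in DoHH-2, 272.5 CPM, and 58 in GM01953, 347 CPM, a GM01953 to DoHH-2 ratio of 1.27 (0.954 to 1.67). The tetraspanin CD81 had 659 and 45 counts, a ratio of DoHH-2 to GM01953 of 1.20 (0.890 to 1.67). The TNF receptor family member TNFRSF13C, the receptor for BAFF, had 10 and 40 counts and was 48.6-fold higher in GM01953 (23.9 to 109). These genes were named after their values were seen.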
